A study of Rattus norvegicus with 5 samples.

Results

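One hour of insulin was compared with its start in Fao cells, a rat hepatoma line used as a model of the hepatocyte, as 1 array of RNA taken after 60 min against 1 array taken at 0 min. Genes were taken where their probe was well above background on both arrays and the signal differed at least 2-fold. A gene was then kept where its 45 min value, or another probe of the gene, pointed the same way. Of 35652 genes and transcripts on the array, 17830 were well above background at both times and 9201 of these carried a gene symbol. The 72 kept genes with a symbol, 42 higher and 30 lower, are described here.

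Cells had been starved for 16 h in the presence of 10 nM dexamethasone, a synthetic glucocorticoid, and then received 10 nM insulin for 0, 15, 30, 45 or 60 min. The 0 min cells had therefore seen dexamethasone and starvation too, and the added agent that separates the later times from them is insulin. From each time 700 ng of total RNA was labelled with Cy3 for 1 array. Fao is 1 hepatoma line, the labels name no replicate culture, and no culture held without insulin over the hour was analysed here.

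Insulin binds its receptor on the hepatocyte and acts along a pair of main routes. Through PI3K and AKT it drives FoxO transcription factors out of the nucleus, which shuts down genes of glucose output and of fasting. Through Ras and ERK it switches on immediate early genes, whose transcripts appear without new protein synthesis, are short-lived and code largely for transcription factors and for brakes on the same route.

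Every level below is a relative signal, the processed signal divided by the 75th percentile of its own array, so that a relative signal of 1 is that percentile. Levels were not set against each other between genes. A change is the log2 of the ratio of 60 to 0 min. With 1 array a side no comparison here has a p-value, and every fold describes these arrays. Repeated spots of 1 probe gave a change a technical SD of 0.184 on the log2 scale, whereas the change itself had an SD of 0.320 over the genes with a symbol at 60 min and of 0.218 at 45 min. The arrays of 0 to 45 min lay on slide 1 and the 60 min array on slide 2, so slide and time cannot be told apart at 60 min. The 75th percentile was a signal of 253.6 to 299.9 on slide 1 and 480.3 on slide 2, and 56.5% of spots were well above background at 60 min against 50.9% to 52.6% before. The part of slide and signal in the changes below was not tested beyond the alternative scalings.

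Of the markers of the labelled cell type, all 9 of the hepatocyte, among them Alb, Ttr and Serpina1, were well above background at both times. Their summed relative signal was 585 at 0 min and 666 at 60 min, and most of that difference came from Fgg, at 101 and 165, whose other probe had a log2 change of 0.09. Of 6 macrophage markers 4 were matched to a probe and 3 measured, with a sum of 0.233 and then 0.202, and of 5 endothelial markers 2, with 0.277 and then 0.179. Of 4 stellate markers 1, the collagen gene Col1a1, was measured and well above background, at 1.71 and 1.58, and of 4 biliary markers 2, with sums of 0.339 and 0.373. Sums over different probes are given to compare the times, not the cell types. The measured markers were Cd68, Clec4f and Csf1r of the macrophage, Cdh5 and Kdr of the endothelium and the biliary Krt19 and Sox9. Adgre1, Pecam1, Vwf, Stab2, Lrat, Pdgfrb, Krt7 and Epcam were not well above background at either time, and Des was so at 60 min only. In RNA from a whole culture, fewer cells of a type and less RNA per cell cannot be told apart.

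At 60 min 113 of the 17830 genes and transcripts were at least 2-fold higher, 0.634% of those measured, and 125 were at least 2-fold lower, 0.701%. Among the genes with a symbol 45 were higher (0.489%) and 47 lower (0.511%). The request for a like direction at 45 min or in another probe kept 42 of the 45 (0.456% of the genes with a symbol) and 30 of the 47 (0.326%). Only the sign was asked for, whatever its size. With a support of at least 0.3 on the log2 scale, 38 higher and 21 lower genes with a symbol were kept. The rule used the 60, 45 and 0 min arrays, so the signs there are fixed by the choice and support nothing. The median relative signal of the 42 higher genes was 0.571 at 0 min and 1.69 at 60 min, with a median fold of 2.47. For the 30 lower genes it was 0.320 and then 0.127, with a median fold of 2.34.

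**Figure D1:**
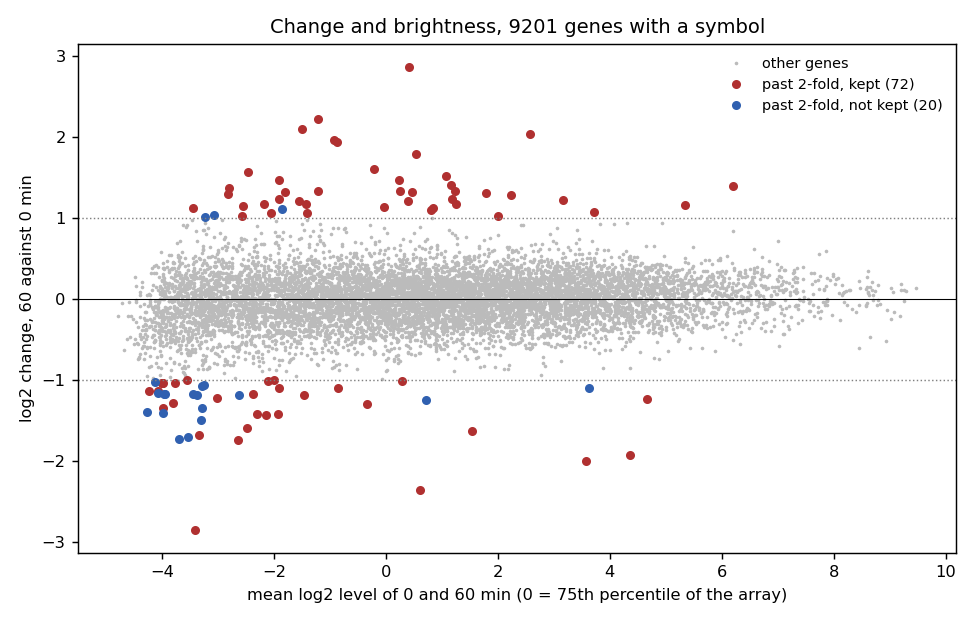
Log2 change from 0 to 60 min (vertical axis) against the mean log2 level of both arrays (horizontal axis, 0 is the 75th percentile) for the 9201 genes with a symbol, 1 array a side. Red points are the 72 kept genes and blue points the 20 past 2-fold but not kept, which lie mostly among dim genes on the lower side, and dotted lines mark 2-fold.

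Higher and lower genes lay at different brightness. Among the dimmest 2301 genes with a symbol, 16 were 2-fold higher and 36 lower, while among the other 6900 genes 29 were higher and 11 lower. Of the 30 kept lower genes 21 were in that dimmest group, against 13 of the 42 kept higher genes. The lower genes outside it include Egr1, G6pc1, Klf15, Fos, Surf6 and Ankrd37. With another background correction, normexp, 25 of the 42 higher genes and 10 of the 30 lower ones were still past 2-fold and kept. Normexp was run with an offset of 50 added to every signal, which weighs most on dim ones. In all, that setting kept 31 higher and 10 lower genes with a symbol, so the counts and the split between the directions depend on how dim signals are treated. The 17 higher genes under 2-fold with normexp were Nab2, Sox21, Vgf, Epc1, Hes1, Rel, Ttc39b, Bpifa5, RT1-CE6, Nfkbie, Reg3b, Tgm1, Lonrf1, Irf1, Nfya, Zbtb2 and Pprc1. The 20 lower ones were Fam43a, Irak2, Sufu, Zfp36, Hoxc6, Nr0b1, Avil, Pfkfb3, Angptl4, Tasl, Ttc21a, Myb, Acrbp, Hba-a3, Rasd1, Purg, B3galt1, Rnf39, Gdf6 and Rsph3. All 42 and all 30 genes kept their sign under that correction and in the scalings where they were measured.

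The arrays of 15 and 30 min took no part in choosing the genes, so the step from 15 to 30 min is a separate view of them. Of the 42 higher genes 41 were measured there and 35 were higher at 30 min than at 15 min, where 49.0% of all genes with a symbol were. Of the 30 lower genes 25 were well above background at both times. Of these, 18 were lower at 30 min, a step in which the same 49.0% of all genes with a symbol were higher. The courses over time show that 35 of the 42 higher genes had their highest value at 60 min, 5 at 45 min (Arid5a, Mt1, Nr4a3, Rnd1 and Tgm1) and 2 at 30 min (Atf3 and Rhob). Of the 30 lower genes 29 had their lowest value at 60 min, with Sufu lowest at 45 min. Unlike the step from 15 to 30 min, these places are partly fixed by the choice of genes at 60 min. The 60 min array also lay on slide 2, so they are given as a description.

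**Figure D2:**
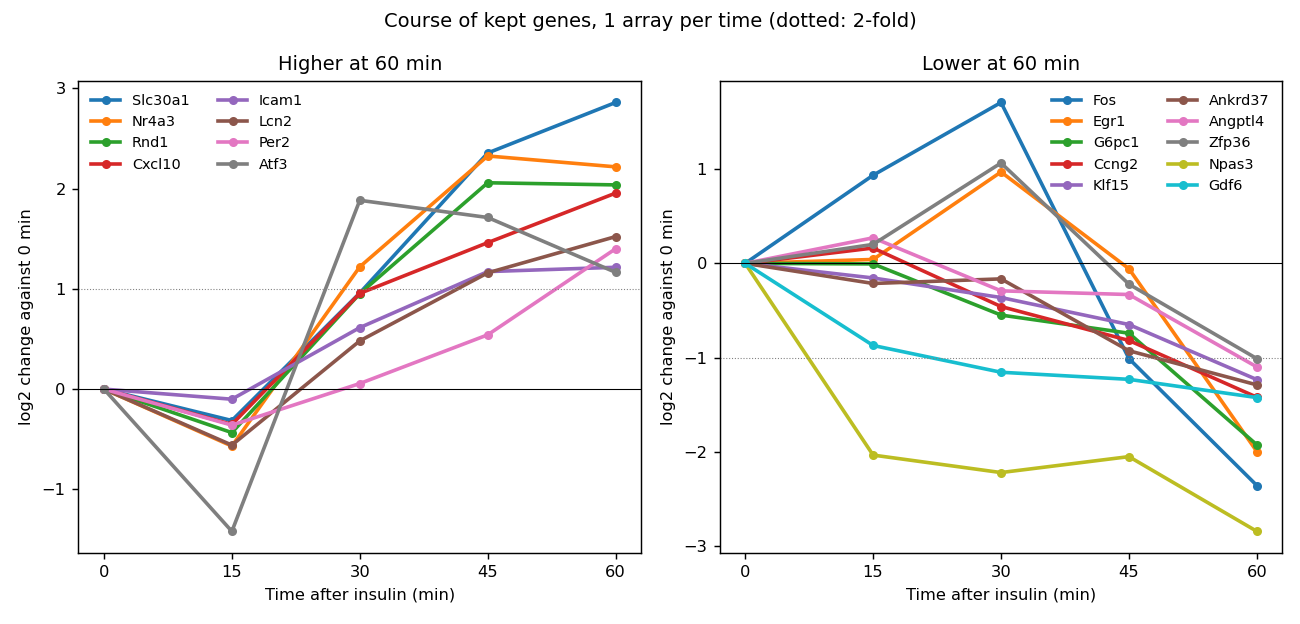
Log2 change against 0 min (vertical axis) over minutes of insulin (horizontal axis) for kept genes that were higher (left) or lower (right) at 60 min, 1 array per time and no error bars. Most of the higher genes climb between 15 and 45 min, Atf3 is highest at 30 min, and Fos, Egr1 and Zfp36 are above their start at 30 min and below it at 60 min.

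The rule used the 0, 45 and 60 min values, so the size of the last step is given as a description. By 45 min 16 of the 42 higher genes were already past 2-fold, and 18 were at least 1.5-fold higher at 60 than at 45 min. Of the 30 lower genes 7 were past 2-fold at 45 min, while 21 were at least 1.5-fold lower at 60 than at 45 min. Of the 8973 genes with a symbol measured at 60 and 45 min, 1.44% were at least 1.5-fold higher at 60 than at 45 min and 4.07% at least 1.5-fold lower. That step crosses from slide 1 to slide 2.

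**Figure D3:**
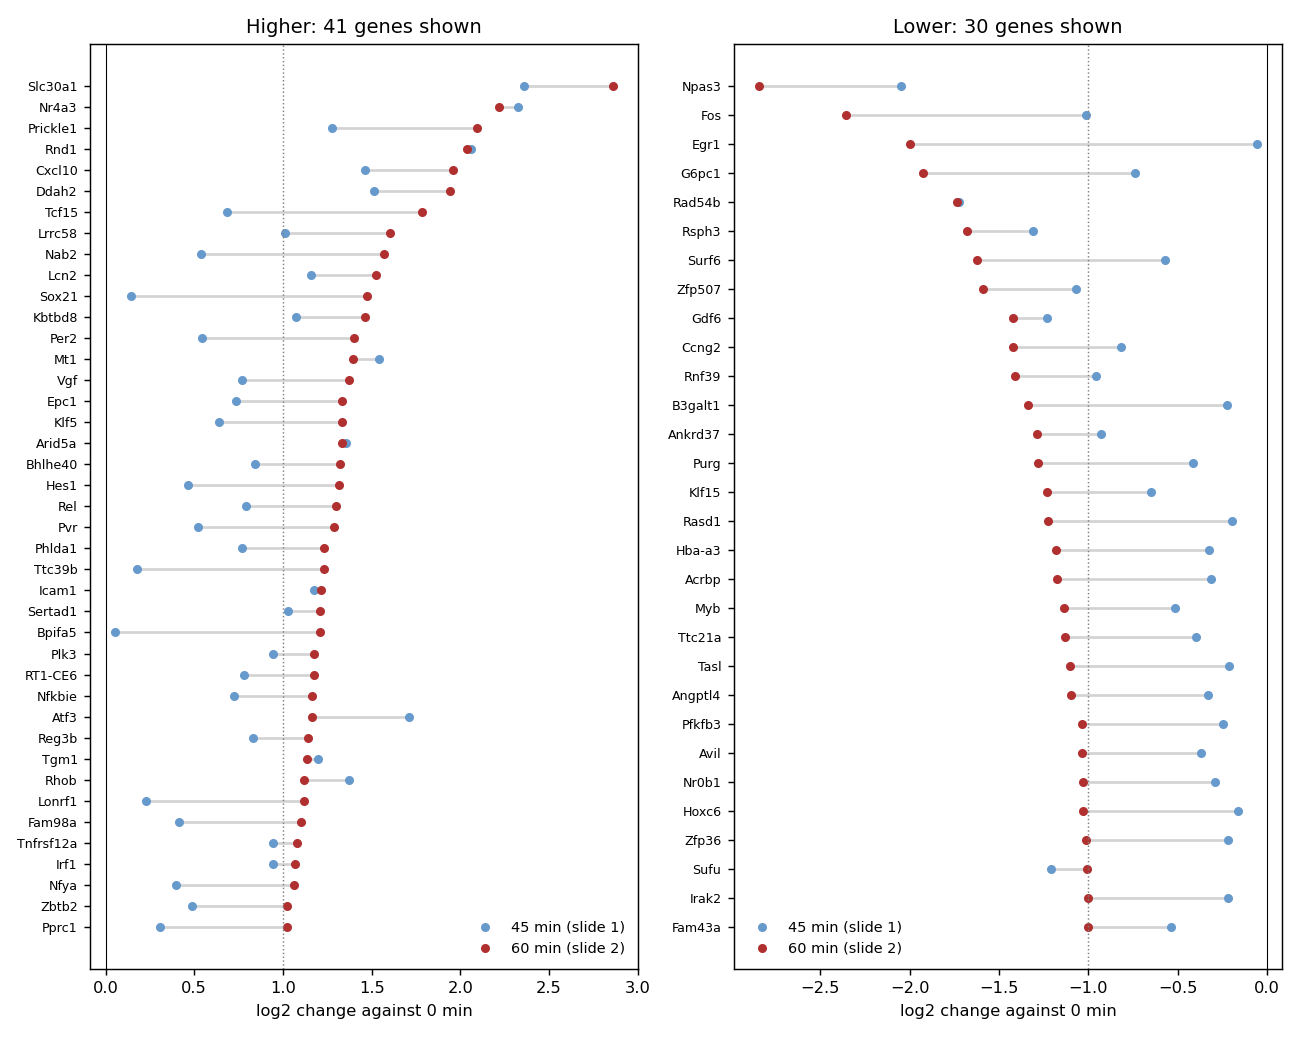
Log2 change against 0 min (horizontal axis) of 41 of the 42 higher genes (left) and the 30 lower genes (right), with the 45 min array of slide 1 in blue and the 60 min array of slide 2 in red, 1 array each, and the dotted line at 2-fold. For most lower genes the blue point lies short of 2-fold and the red point past it, whereas Slc30a1, Nr4a3, Rnd1 and Cxcl10 were past 2-fold at both times.

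The gene with the highest change was Slc30a1, which codes for the zinc exporter ZnT1 of the plasma membrane (probe at chr13:107983689-107983748, rn4). Its relative signal was 0.495 at 0 min, 0.398 at 15 min, 0.962 at 30 min, 2.53 at 45 min and 3.59 at 60 min. It was thus 7.26-fold higher at 60 min (log2 change 2.86), and each array from 30 min on was above the one before. Mt1, metallothionein 1, a small protein that holds zinc and copper, had relative signals of 45.2, 25.3, 70.5, 132 and 119 in order of time. Its log2 change was 1.40, but another Mt1 probe gave −0.03, and near-identical metallothionein copies can share signal, so Mt1 itself is uncertain. Both genes are known targets of the metal-sensing factor MTF-1, whose response element has the core TGCACNC or TGCGCNC. Since they are the metal genes of the kept set, the 250 bases before their start in RefSeq GRCr8 are shown, with capitals for this core on either strand and, in Mt1, also for 1 match to TGACGT. They were picked for display after their values were seen.
Slc30a1, chr13:106021769-106022018, plus strand: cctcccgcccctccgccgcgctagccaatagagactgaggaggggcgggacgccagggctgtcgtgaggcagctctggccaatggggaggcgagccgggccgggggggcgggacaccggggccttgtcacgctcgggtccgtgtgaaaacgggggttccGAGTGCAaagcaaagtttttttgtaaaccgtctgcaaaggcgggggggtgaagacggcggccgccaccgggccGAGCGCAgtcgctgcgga
Mt1, chr19:10832976-10833225, minus strand: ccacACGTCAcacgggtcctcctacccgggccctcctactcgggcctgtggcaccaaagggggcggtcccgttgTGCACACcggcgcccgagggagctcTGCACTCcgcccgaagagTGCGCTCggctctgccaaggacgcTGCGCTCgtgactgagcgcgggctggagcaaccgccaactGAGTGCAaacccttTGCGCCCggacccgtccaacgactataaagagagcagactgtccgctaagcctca

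The Slc30a1 promoter held the metal core at 2 places, with the first bases 91 and 18 bases before the start, and the Mt1 promoter at 6 places, 176 to 55 bases before it. The core is short, and 25.0% of 27457 rat promoters of 300 bases (250 before and 50 after the start) held at least 1 match. At least 2 matches were in 6.69%, and at least 6 in 9 promoters. Over the kept genes with a promoter entry, 17 of 36 higher and 8 of 23 lower ones held the core, beside 35.8% of all measured genes. These matches describe letters in the window and not sites in use.

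Immediate early genes went both ways at 60 min. Of 31 measured members 10 were at least 1.5-fold higher and 7 at least 1.5-fold lower, where 2.43% of all genes with a symbol were higher by that much and 3.42% lower. The list median was 0.03, and 0.01 was the median over all genes with a symbol. Past 2-fold 5 were higher, all of them kept (Nr4a3, Bhlhe40, Plk3, Atf3 and Rhob), and 4 lower (Fos, Egr1, Zfp36 and, not kept, Egr2). Over all genes with a symbol 0.489% were 2-fold higher and 0.511% lower.

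Nr4a3, an orphan nuclear receptor induced by many stimuli, had relative signals of 0.200, 0.135, 0.466, 1.0 and 0.931 in order of time (probe at chr5:64753210-64753269, rn4). Against the start this is 5.02-fold at 45 min and 4.65-fold at the end of the hour, where another probe gave 4.44-fold. The 45 and 60 min arrays were alike for this gene and both stood above the first 3. Atf3, a stress-induced repressor of the ATF family, followed an earlier course, with 27.1, 10.1, 99.9, 88.7 and 60.7. It was highest at 30 min and still 2.24-fold above the start at 60 min. Rhob, a small GTPase of endosomes, read 1.21, 1.41, 3.17, 3.13 and 2.63, and so was also past its highest value by 60 min. Plk3, a stress-responsive polo-like kinase, read 1.59, 1.10, 2.76, 3.06 and 3.59 and was 2.26-fold higher, with 1.81-fold by another probe.

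The lower members had a peak first. Fos, the AP-1 partner of Jun, read 3.44 at 0 min, 6.58 at 15 min, 11.2 at 30 min, 1.71 at 45 min and 0.672 at 60 min, which put it 5.12-fold below its start at the end. Egr1, a zinc finger factor downstream of ERK, read 23.8, 24.5, 46.7, 22.9 and 5.97, and its 3.99-fold lower value at 60 min lay wholly in the last step, since its log2 change was −0.06 at 45 min. Zfp36, or tristetraprolin, which directs the decay of short-lived mRNAs, read 0.330, 0.379, 0.690, 0.283 and 0.164. All 3 were highest at 30 min and lowest at 60 min. Egr2, a relative of Egr1, was left out by the rule because its log2 change was 1.40 at 45 min and −1.25 at 60 min. Jun at 0.52 and Myc at −0.37 were under 1.5-fold at 60 min.

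Genes that restrain growth factor signals were divided too. Of 10 measured ERK feedback genes 1 was at least 1.5-fold higher and 2 lower, beside 2.43% and 3.42% of all genes with a symbol. Phlda1, a PH domain protein of growth factor feedback, read 1.49, 1.41, 2.04, 2.53 and 3.49 and was 2.35-fold higher, with 2.22-fold by another probe. Dusp1 and Dusp6, phosphatases of MAP kinases, had log2 changes of −0.93 and −0.85. Outside the list, Nab2, a corepressor of EGR factors, read 0.106, 0.107, 0.129, 0.154 and 0.315, with its highest value on the 60 min array. With normexp its log2 change was 0.68 in place of 1.57.

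Targets that FoxO factors activate in fasting included 4 of the kept lower genes. Of 24 measured members 9 were above 0, beside 50.6% of all genes with a symbol. At least 1.5-fold lower were 6 and higher 2, beside 3.42% and 2.43%. At least 2-fold lower were 4 and none was 2-fold higher, beside 0.511% and 0.489%. The list median was −0.13 (−0.16 to −0.04 over the other scalings). G6pc1, the glucose-6-phosphatase catalytic subunit that releases free glucose from the liver cell, read 40.1, 40.0, 27.4, 24.0 and 10.6 (probe at chr10:90403940-90403999, rn4). It was 3.80-fold lower at 60 min, another probe gave 4.64-fold lower, and each array from 30 min on was below the one before. Ccng2, a cyclin that slows proliferation, read 0.433, 0.485, 0.315, 0.245 and 0.162 and was 2.68-fold lower. Klf15, a Kruppel-like factor that favours gluconeogenesis and amino acid breakdown, read 38.7, 34.8, 30.1, 24.7 and 16.5 and was lower on every array than on the one before. Angptl4, an inhibitor of lipoprotein lipase, read 0.810, 0.977, 0.662, 0.644 and 0.378.

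Not every FoxO target or gluconeogenic gene did so. Pck1, which makes phosphoenolpyruvate for gluconeogenesis, had a log2 change of 0.15, and Igfbp1, a binding protein of insulin-like growth factors, of −0.15. Irs2, an adaptor of the insulin receptor, was at −0.37 and its 3 further probes gave −0.69, −0.44 and −0.53. Insr, the insulin receptor, was at 0.59 from a dim 0.129, but at −0.08 at 45 min and at 0.09 in the lowest scaling. Gadd45a, a DNA damage gene, was at 0.61. G6pc1 was the only 1 of 11 measured gluconeogenesis genes past 1.5-fold in either direction, and the list median was −0.01, which turned to 0.11 with normexp. Of 24 measured proteins of the insulin signal itself Insr and Pik3cb, at −0.59, were past 1.5-fold. Both counts stand beside 2.43% of all genes with a symbol that were higher by that much and 3.42% that were lower. Pik3cb was at −0.01 at 45 min and at −0.44 by another probe at 60 min. The G6pc1 promoter is shown because this is the kept lower gene with 2 probes that agree, with capitals for TGTTTTG or TATTTTG, cores of the insulin response sequence to which FoxO binds. These letters were chosen with the promoter in view.
G6pc1, chr10:86807409-86807658, plus strand: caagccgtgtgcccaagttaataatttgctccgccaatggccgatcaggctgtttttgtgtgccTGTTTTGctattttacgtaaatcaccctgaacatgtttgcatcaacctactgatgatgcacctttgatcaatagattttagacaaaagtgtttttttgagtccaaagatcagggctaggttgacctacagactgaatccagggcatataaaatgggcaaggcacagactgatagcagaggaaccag

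The single match began 186 bases before the start. Either core was in 10.7% of all rat promoters of 300 bases and 6.75% of those of measured genes, in 3 of 23 kept lower genes (Avil, Ccng2 and G6pc1) and in 1 of 36 higher ones (Kbtbd8). The stricter FoxO motif GTAAACA was in 3.76% of all promoters and 2.53% of those of measured genes, in 2 of the 23 and in 1 of the 36.

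The NF-kB and chemokine list held 4 of the kept higher genes. Of 13 measured members 11 were above 0, 5 were at least 1.5-fold higher and 1 lower, beside 50.6%, 2.43% and 3.42% of all genes with a symbol, and the median of 0.43 ranged from 0.31 to 0.42 over the other scalings. Nfkbia, the main NF-kB inhibitor and 1 of the 11, was at 0.27 and at −1.21 by another probe. Cxcl10, a chemokine that draws T cells, read 0.268, 0.210, 0.519, 0.737 and 1.04 and was 3.88-fold higher (probe at chr14:17267994-17268053, rn4). Icam1, an adhesion molecule for leukocytes, read 5.92, 5.52, 9.05, 13.3 and 13.7, with its 2.32-fold difference nearly complete by 45 min. Rel, the NF-kB subunit c-Rel, read 0.0904, 0.0861, 0.107, 0.157 and 0.223, a log2 change of 1.30 that was 0.31 with normexp. Nfkbie, a cytoplasmic inhibitor of NF-kB, was 2.24-fold higher, from 0.249 to 0.559, and 1.72-fold with normexp. All 4 had their lowest value at 15 min and their highest at 60 min.

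Several immune genes beside that list, grouped after their values were seen, were higher too. Irf1, an interferon regulatory factor that also answers to NF-kB, read 0.261, 0.230, 0.354, 0.502 and 0.547, with a fold of 2.09 and, with normexp, of 1.61. Lcn2, an acute phase protein that binds bacterial siderophores, read 1.24, 0.842, 1.73, 2.77 and 3.56 and was 2.87-fold higher. Reg3b, a secreted lectin of the acute phase, was 2.21-fold higher from a dim 0.115 and 1.26-fold with normexp, and Tnfrsf12a, the receptor of the cytokine TWEAK, 2.11-fold, with 2.03-fold by another probe. RT1-CE6, a class I histocompatibility gene, was 2.26-fold higher (1.38-fold with normexp), though its many near-identical relatives make the gene's identity uncertain. Lower at 60 min were Cxcl1, a neutrophil chemokine, and Irak2, a kinase of the interleukin-1 receptor. Cxcl1 read 18.1, 6.63, 31.8, 20.4 and 8.48, a course with no steady direction that the rule left out, and Irak2 was 2.00-fold lower with most of its difference in the last step. The interferon list as a whole was near 0, with a median of 0.02 over 16 members, which was −0.01 at the lowest scaling. Its 2 members past 2-fold, Cxcl10 and Irf1, were both higher, beside 0.489% of all genes with a symbol.

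The Cxcl10 promoter is shown as that of the highest gene of this group, with capitals for the NF-kB motif (GGGA and TTCC with 2 bases between), the interferon motif (GAAA and GAAA with 2 bases between) and the AP-1 motif TGANTCA on either strand.
Cxcl10, chr14:15988816-15989065, plus strand: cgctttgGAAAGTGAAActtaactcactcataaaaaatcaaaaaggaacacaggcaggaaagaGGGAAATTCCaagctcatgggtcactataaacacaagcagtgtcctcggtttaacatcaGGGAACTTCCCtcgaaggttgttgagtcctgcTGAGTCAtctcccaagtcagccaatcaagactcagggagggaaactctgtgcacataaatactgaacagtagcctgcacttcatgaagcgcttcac

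The NF-kB motif matched at 187, 128 and 127 bases before the start, of which the last 2 overlap, and the interferon motif at 243 bases. An NF-kB match was in 1.29% of all rat promoters and 1.45% of those of measured genes, in 3 of 36 kept higher genes (Cxcl10, Lcn2 and Sertad1) and in 0 of 23 lower ones, and 19 promoters in all held at least 2 matches. The AP-1 motif matched at 96 bases before the start, as it did in 4 of the 36 and 0 of the 23 promoters, beside 7.33% of all and 4.88% of those of measured genes.

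A pair of clock repressors were kept higher genes. Per2, a core repressor of the circadian clock, read 1.39, 1.08, 1.44, 2.02 and 3.66 and was 2.64-fold higher, most of it after 45 min. Bhlhe40, a repressor that acts on clock promoters, read 0.876, 0.639, 0.933, 1.57 and 2.18. Per1, a relative of Per2, had a log2 change of 0.74 and was the third clock gene past 1.5-fold of 13 measured. Over all genes with a symbol 2.43% were higher and 3.42% lower by that much. Other repressors of the clock were below 0, with Cry2 at −0.44, Per3 at −0.35, Nr1d1 at −0.30 and Cry1 at −0.12, and the list median was −0.12.

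Several other kept higher genes are transcription factors or their partners. Klf5, a growth-linked Kruppel-like factor, read 1.48, 1.35, 1.99, 2.30 and 3.72 and was 2.52-fold higher, with 2.61-fold by another probe. Hes1, a repressor of the Notch route, read 0.183, 0.225, 0.252, 0.252 and 0.455, and Sox21, an HMG box factor, 0.160, 0.181, 0.158, 0.177 and 0.444, so that both stood out on the 60 min array alone. With normexp they were 1.73-fold and 1.69-fold higher. Tcf15, a basic helix-loop-helix factor, read 0.785, 1.40, 1.27, 1.26 and 2.70. Arid5a, which stabilises inflammatory mRNAs, read 0.753, 0.367, 1.22, 1.92 and 1.90 and was level between the last 2 arrays. Epc1, of a histone acetyltransferase complex, was 2.52-fold higher, 1.84-fold by another probe and 1.71-fold with normexp. Nfya, a subunit of the CCAAT-binding factor, Pprc1, a coactivator of mitochondrial genes, and Zbtb2, a zinc finger protein, were 2.03-fold to 2.09-fold higher. With normexp Nfya was 1.42-fold and Zbtb2 1.24-fold higher, and Pprc1 fell just short of 2-fold. Another Zbtb2 probe showed a log2 change of 0.01.

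Of the 25 measured genes of cholesterol synthesis and uptake 17 were above 0, 4 at least 1.5-fold higher and 1 lower, with a median of 0.22 (0.17 to 0.21 over the other scalings), beside 50.6% above 0, 2.43% higher and 3.42% lower over all genes with a symbol. Idi1, an isomerase of the route, was at 0.94 and at 0.23 by another probe, Sqle, squalene epoxidase, at 0.69 and Msmo1, a sterol oxidase, at 0.59. At 45 min, on slide 1, the list median was 0.03, with Idi1 at 0.45, Msmo1 at 0.13 and Sqle at −0.12. Sqle had no other measured probe, so neither kind of support held for it. Insig2, which restrains the route, was at −0.67. None of 16 fatty acid and triglyceride synthesis genes was past 1.5-fold, beside the same 2.43% higher and 3.42% lower.

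Some further higher genes act in cell shape and at the cell surface, an arrangement made after their values were seen. Of the list of SRF and actin targets 10 members were measured, with a median of 0.16. At least 1.5-fold higher were 2 and lower 1, beside 2.43% and 3.42% of all genes with a symbol, and none was past 2-fold. Rnd1, a small GTPase that loosens actin fibres, read 2.93, 2.17, 5.66, 12.2 and 12.0 and was 4.11-fold higher, with 4.99-fold by another probe (chr7:137418530-137418588, rn4, for the first). Its 45 and 60 min values were alike. Prickle1, of planar cell polarity, read 0.171, 0.114, 0.165, 0.413 and 0.728. Pvr, a surface receptor of adhesion, was 2.44-fold higher, from 3.02 to 7.39, and Tgm1, a transglutaminase that links proteins at the cell edge, 2.20-fold, from 0.657 to 1.44. Srf, the factor that drives actin genes, was just under the threshold, but its 3 probes agreed at 0.87 to 1.09.

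The remaining higher genes have diverse roles. Ddah2, of the dimethylarginine hydrolase family, read 0.279, 0.375, 0.474, 0.799 and 1.07, higher on each array than on the one before. Kbtbd8, an adaptor of a ubiquitin ligase, read 0.710, 0.859, 1.26, 1.5 and 1.96, and Sertad1, a cell cycle cofactor, 0.869, 1.17, 1.51, 1.77 and 2.01, with the same steady order. Vgf, a precursor of secreted peptides, was 2.58-fold higher from a dim 0.0897, and 1.28-fold with normexp. Fam98a was 2.15-fold higher with 1.72-fold by another probe. Lrrc58, at 3.04-fold, had no other measured probe. For Ttc39b, Bpifa5 and Lonrf1 the 45 min log2 changes were 0.18, 0.05 and 0.23, so these differences of 2.17-fold to 2.35-fold lie in the step to the 60 min array. With normexp their log2 changes at 60 min were 0.61, 0.68 and 0.03.

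The other lower genes were mostly dim and fall into 2 kinds by their course. In 6 of them at least 50% of the log2 change was present at 15 min (Npas3, Rsph3, Gdf6, Zfp507, Ttc21a and Sufu). Apart from Ttc21a, they rest largely on the single 0 min array. Ttc21a read 0.0878, 0.0513, 0.0706, 0.0665 and 0.0401, with 35.3% of its change present at 45 min. The 15 min values of Npas3, Rsph3 and Ttc21a were not well above background. Npas3, a neuronal PAS domain factor and the kept gene with the lowest change on the scale used here, read 0.253 at 0 min and then 0.0618, 0.0543, 0.0611 and 0.0353. Its 30 min value was not well above background either. With normexp its log2 change was −1.38 in place of −2.84, and Fos, Egr1 and G6pc1 were lower than that. Sufu, a suppressor of Hedgehog signals, read 1.74 and then 0.807, 0.802, 0.752 and 0.866. With 15 min in place of 0 min as the start, its change was 0.10.

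The others had less than 50% of their change at 15 min. Ankrd37, a target of the hypoxia factor HIF-1, read 1.24, 1.07, 1.10, 0.651 and 0.506. Of 17 measured hypoxia targets it alone was past 1.5-fold, beside 2.43% of all genes with a symbol higher and 3.42% lower. Pfkfb3, which makes the activator of phosphofructokinase, read 0.105, 0.193, 0.102, 0.0889 and 0.0514. Rasd1, named as a Ras protein induced by dexamethasone, read 0.190, 0.237, 0.235, 0.166 and 0.0811, with most of its difference in the step from 45 to 60 min. Rad54b, of homologous recombination, read 0.294, 0.163, 0.146, 0.0888 and 0.0881, with nearly all of its difference present at 45 min. Surf6, a nucleolar protein, was 3.08-fold lower by its brightest probe, but another probe gave a log2 change of 0.20, so its direction is unsettled. Myb, a growth-linked factor, Nr0b1, an orphan receptor of steroid tissues, Hoxc6, a homeobox factor, and Avil, an actin binder, were 2.04-fold to 2.20-fold lower from levels under 0.1. Rnf39 was 2.66-fold lower, Purg, a relative of a single-strand DNA binder, 2.43-fold, B3galt1, a galactosyltransferase, 2.53-fold, and Hba-a3, an alpha globin copy whose relatives can share its signal, 2.27-fold. Acrbp was 2.26-fold lower, Tasl, an adaptor of endosomal Toll-like receptors, 2.15-fold and Fam43a 2.00-fold.

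Glucocorticoid-induced genes went both ways, in cells that all had dexamethasone from before the start. Of 18 measured, 5 were at least 1.5-fold higher, among them Lcn2, Mt1 and Per1, beside 2.43% of all genes with a symbol. Another Mt1 probe was at −0.03. At least 1.5-fold lower were 3, Angptl4, Zfp36 and Dusp1, beside 3.42%. The list median of 0.14 became −0.11 in 1 of the scalings.

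**Figure D4:**
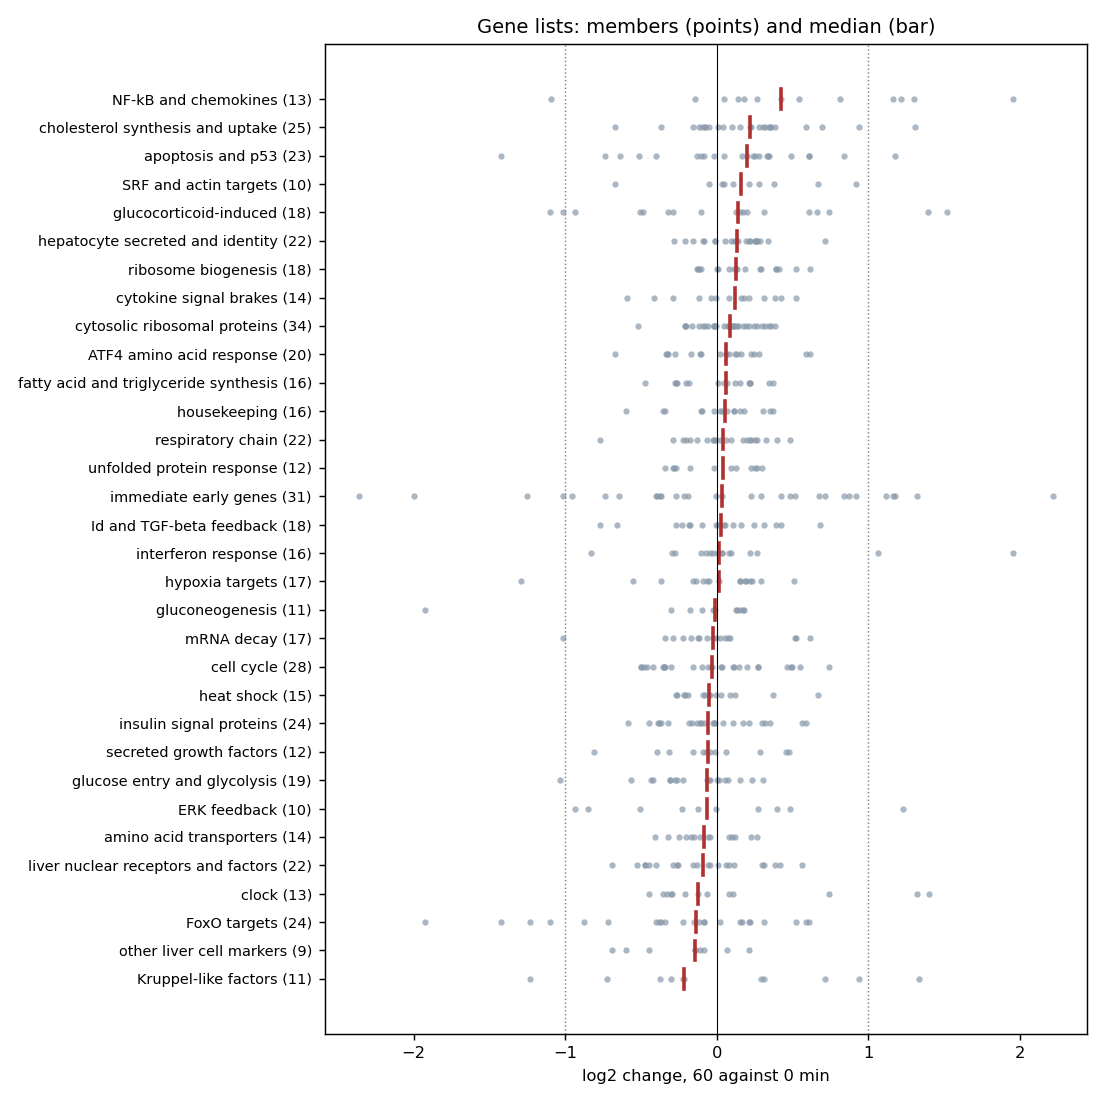
Log2 change from 0 to 60 min (horizontal axis) of each measured member (points) of 32 gene lists (vertical axis, number measured in brackets), with the list median as a red bar and dotted lines at 2-fold, 1 array a side. The NF-kB list has the highest median at 0.43, immediate early genes have the widest spread from −2.36 to 2.22, and ribosomal proteins lie close to 0.

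In several other lists few or no members were past 1.5-fold. Over all genes with a symbol 2.43% were higher and 3.42% lower by that much, so such low counts do not set these lists apart. None of 34 cytosolic ribosomal protein genes was past 1.5-fold and 1 of 16 housekeeping genes was. Actb, beta actin, had a log2 change of 0.04 and of 0.61 by another probe, and Gapdh of 0.31 and −0.09. Of 28 cell cycle genes 1 was past 1.5-fold, Ccnd1, the cyclin of early G1, at 0.74 and at 0.91 by another probe. Ccnd1 read 8.48 at 0 min, 8.49 at 45 min and 14.2 at 60 min, so its difference lay in the step that crosses to slide 2. Among 22 genes of hepatocyte identity Fgg, a fibrinogen chain, was past 1.5-fold at 0.71, with 0.09 by another probe.

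Other probes of the same gene, which share both arrays, show how far a single probe can be trusted. Over 2220 genes with at least 2 measured probes, the difference between the brightest probe and the next had an SD of 0.361, and 83.9% of pairs lay within 0.5 of each other. Of 110 such genes past 1.5-fold by the brightest probe, the next one had the same sign in 87 and was itself past 1.5-fold in 33. Of the kept genes 11 of the higher had another measured probe and 10 pointed the same way, the exception being Mt1, and of 2 lower ones G6pc1 did and Surf6 did not. All measured probes were at least 1.5-fold higher in 23 genes, led by Nr4a3, Rnd1, Klf5, Phlda1, Epc1, Tnfrsf12a, Klf10, Plk3, Fam98a and Clcf1, and lower in 9, led by G6pc1 at a median of −2.07. The next of these were Ocln, an occludin of tight junctions, at −0.75 and −0.68, and Gpank1 at −0.73 and −0.72. Dnmt1, the maintenance DNA methyltransferase, was at −0.69 and −0.59, and Chac1, which breaks down glutathione, at −0.67 by both probes.

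**Figure D5:**
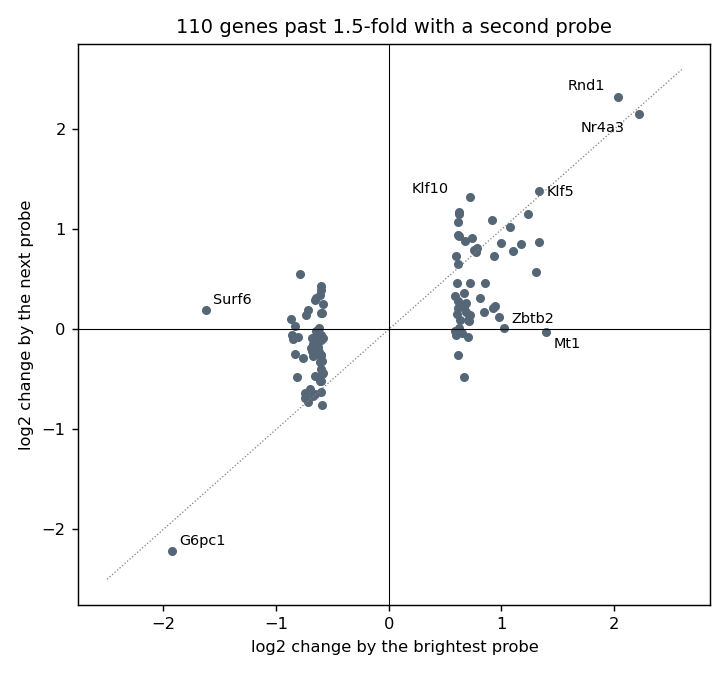
Log2 change from 0 to 60 min by the next probe (vertical axis) against that by the brightest probe (horizontal axis) for the 110 genes past 1.5-fold that have another measured probe, 1 array a side, with the dotted line at equality. Rnd1, Nr4a3, Klf5 and G6pc1 lie near the line, while Mt1, Zbtb2 and Surf6 have a next probe near 0.

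The threshold cut through a continuous range. Just inside it on the higher side were Pprc1, Zbtb2 and Nfya with log2 changes of 1.02 to 1.06. Just outside were Clcf1, a cytokine, at 1.99-fold, and Klhl11 and Slc30a2, a zinc transporter, at 1.97-fold each (a log2 change of 0.12 by another Slc30a2 probe). On the lower side Fam43a, Irak2 and Sufu at 2.00-fold to 2.01-fold were inside, and log2 changes of −0.98 for C1qtnf6, −0.97 for Efna1, an ephrin, and −0.95 for Ccn2, a matrix protein of growth responses, were outside. The rule left out 3 higher genes, among them Ppp1r27 and Or7g32, and 17 lower ones, of which 13 were not well above background at 45 min.

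Genes well above background on 1 of the arrays only were not members, since they give no more than a bound. There were 1783 such genes and transcripts at 60 min and 381 at 0 min, of which 282 and 239 had a bound of at least 2-fold, while 15658 were on neither array.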

How the data were processed

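Total RNA of 5 cultures, 1 for each time, was measured on Agilent 1-colour rat arrays, with groups taken from the labelled time. Per the file headers, the deposited intensity came from Agilent Feature Extraction 9.5.3.1, which had subtracted background, with probe positions on rn4. The authors also deposited log2 values in a series matrix, used as an alternative only. The sources used here do not say how it was made.

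Control, outlier and non-uniform spots were left out and the spots of a probe averaged. Signals were scaled to the 75th percentile of the array's non-control spots and log2 taken. A gene was its brightest probe. Of 41012 probes, 10928 were named by accession and 8669 by symbol through a RefSeq table of GRCr8, and 21415 kept their name in the files. No genome was used, so exons and UTRs were not assigned. The counting steps were run on simulated data with planted changes, every probe well above background and no slide effect. That run checks the steps alone and gives no error rate for these arrays.

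The naming rule took the 15 highest and 15 lowest kept changes, the 3 genes nearest either side of the threshold, up to 10 genes in each direction whose probes were all past 1.5-fold the same way, up to 3 supported members of each list with the largest change, and genes fixed by name. The remaining kept genes are named as members, and a few genes are not reported here. Others were picked after their values were seen, among them the further list members given as examples, the genes left out by the rule and the zinc genes. The members and the 32 lists (720 entries, 679 on the array) were chosen with earlier results of these data known. No spot was saturated. The number of arrays limits the precision, and no test was possible. Python 3.11.15, pandas 2.3.3, R 4.3.3 and limma 3.58.1 were used.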

Additional observations from a re-analysis of the deposited data

How the results depend on the processing

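Against 113 higher and 125 lower genes and transcripts (102 and 92 kept), normexp background gave 47 and 39 (45 and 35 kept). With no filter and bounds counted there were 395 and 365. With the mean of 0 and 15 min as the start the lower count was 76. With the 45 min array in place of 60 min there were 56 and 48 (45 and 45 kept). A 1.5-fold threshold gave 607 and 682 (531 and 445 kept), and a 3-fold threshold 18 and 26 (16 and 20 kept). The other counts under these settings, and all 4 counts under the remaining ones, were within 1.5 times the main value. The change of Sufu was 0.10 with 15 min as the start, and that of Egr2 was 1.40 with the 45 min array. Over all settings, 981 of 1196 values of named genes and 367 of 384 list medians moved by less than the technical SD of a change of 0.184, 213 and 17 moved by more, and these 2 genes were the ones past 2-fold whose sign turned. The causes were not tested. No paired analysis was possible because each time has 1 array. The dim end is limited by signal over background.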

Other observations

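Because Slc30a1, Mt1 and Slc30a2 lay at or near the top, the other genes of zinc handling were looked up after these values were seen. Of 28 metallothionein, zinc transporter and MTF-1 genes 18 were measured, 4 were at least 1.5-fold higher and none lower, beside 2.43% and 3.42% of all genes with a symbol, and their median log2 change was 0.21. Of these 4 only Slc30a1 had no other measured probe, and the other probes of Mt1, Slc30a2 and Slc39a14 gave −0.03, 0.12 and 0.18, so these 3 are uncertain. Slc39a14, a zinc and iron importer, was the fourth, from a relative signal of 0.303 to 0.544 (log2 change 0.84). Apart from Slc30a1, Mt1 and Slc30a2, the 15 others ranged from −0.45 for Mtf1, the metal-sensing factor itself, to that 0.84. The importer Slc39a4 was at 0.32 and the Golgi exporters Slc30a5 and Slc30a7 at 0.26 and 0.13. As the list was drawn up for its first genes, its counts are a description of these arrays.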
